A study of Mus musculus with 2 samples.

Results

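Alveolar type I (AT1) cells of the bleomycin-injured mouse lung are described here in single-cell RNA sequencing libraries from mice given vehicle or navitoclax. The cells were chosen by a rule on 5 AT1 transcripts. A droplet barcode counted as a member if it had at least 500 genes, at most 15% mitochondrial UMIs (unique molecular identifiers, each standing for 1 captured transcript), at most 5 UMIs of Col1a1, Col1a2 and Col3a1 together, a summed level of Rtkn2, Akap5, Clic5, Spock2 and Col4a3 of at least 10 per 10000 UMIs, and less than 5 per 10000 of the ciliated genes Tmem212, Ccdc153 and Dynlrb2. The rule found 202 members among 13841 barcodes that passed the gene and mitochondrial limits, 146 of 7396 in the vehicle library and 56 of 6445 in the navitoclax library. The levels of these 5 genes therefore describe how the cells were picked and are no finding.

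Both groups were C57Bl6 mice that received bleomycin, a drug that injures the lung and leads to fibrosis, on day 1, and whose lungs were taken on day 21. The control group (Bleomycin + Vehicle) received vehicle, and the other group received navitoclax (ABT-263), a small molecule that blocks BCL-2 and its anti-apoptotic relatives BCL-XL and BCL-W, from day 15 to day 20. Flow-sorted epithelial cells were pooled in equal parts with flow-sorted stromal cells before capture, so shares are given within epithelial barcodes. There was 1 library per group, no uninjured library was analysed here, and how many mice a library stands for is not stated in the labels. No test between treatments was possible, and all intervals are 95% intervals for counting error only. They leave out differences between mice and between preparations. UMIs were summed over members, so the intervals of levels and ratios also leave out differences between cells.

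AT1 cells are thin, wide cells that cover most of the alveolar surface and share a basement membrane with the capillaries, across which gas is exchanged. They are rich in caveolae, carry water and sodium channels, and send signals such as VEGFA to the capillary bed. After injury they are renewed mainly from cuboidal, surfactant-making alveolar type II (AT2) cells, which pass through a transitional state marked by Krt8 and Cdkn1a before they take on AT1 genes.

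The 2 libraries held 97958947 and 98517048 UMIs. The members held 1450180 UMIs in the vehicle library and 579540 in the navitoclax library, with medians per cell of 8724 and 8627.5 UMIs and of 2756.5 and 2881 genes. Mitochondrial UMIs had medians of 3.73% and 4.29%. Of the barcode sequences, 20 occurred in both libraries, and none of these was a member. Scrublet, which scores barcodes as likely doublets, marked 222 and 205 kept barcodes and no member.

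Whether the label holds was read from AT1 genes that the rule did not use. Ager, the receptor for advanced glycation end products (chr17:34597862-34600936 in mm10), stood at 9476 CPM in the vehicle library and 8484 CPM in the navitoclax library, where CPM is the gene's UMIs per 1000000 UMIs, both summed over the members. Hopx, a homeodomain protein of AT1 cells (chr5:77086988-77115121), stood at 3977 and 3280.2 CPM. The AT2 class, defined by a rule on surfactant genes, had 1138 and 1287 CPM of Ager and 49.5 and 52.8 CPM of Hopx, and barcodes classed as fibroblasts had 91.7 and 76.4 CPM of Ager. Both genes were therefore several-fold higher in members than in these classes in each library. At least 1 Ager UMI was found in 143 of 146 and 53 of 56 members. That share alone separates little, because 98.2% and 99.01% of AT2 barcodes, with median depths of 17874 and 19666 UMIs, also had one. After each cell was thinned to 2000 UMIs, which left out 27 vehicle and 5 navitoclax members, Hopx was seen in 89.9% and 86.3% of members, against 8.75% and 8.82% of AT2 barcodes.

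A few barcodes went against the label. In each library the members that had neither Ager nor Hopx, 3 in the vehicle library and 2 in the navitoclax library, were exactly those with at least 5 per 10000 UMIs from a list of endothelial markers such as Cldn5, Egfl7 and Cdh5. Airway secretory transcripts marked a second few, which overlapped the first: Cyp2f2 and Scgb3a2 together reached 5 per 10000 in 2 vehicle and 7 navitoclax members. Pooled, those 7 had 8828 CPM of Ager and 5276 CPM of Hopx. The pooled Ager level rested mainly on the deepest, of 16966, 11314 and 9116 UMIs, at 93.7, 131 and 88.9 per 10000. The rest ran from 0 to 53.2 per 10000. The barcode at 0, of 1640 UMIs, also had 0 Hopx and was among the 2 with endothelial transcripts. Some of the values that rest on these cells are given below with and without them.

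The genes highest in members relative to the 4 other classes (AT2, transitional, ciliated and fibroblast) gave a profile of the cells beyond the rule. For each gene the lower of both members' levels was divided by the highest level in any other class of either library. The first was Rasgrf2, a guanine nucleotide exchange factor for Ras and Rac proteins, at 54.5 and 36.2 CPM, but the level it was divided by rested on 1 UMI in navitoclax transitional barcodes, so no ratio is given. It was followed by Scnn1g, the gamma subunit of the epithelial sodium channel, with a ratio of 15.2, and Sema3a, a secreted guidance protein, with 13.9, the latter divided by a level from 7 UMIs. Arhgef26 had 9.95, Igfbp2, a secreted binding protein for insulin-like growth factors, had 8.91, and Vegfa, the growth factor for endothelial cells, had 7.8. Hopx had 5.96 and Ager 5.6, so the best known AT1 genes were not the ones with the sharpest contrast in these libraries. The same 20 genes held a second epithelial sodium channel subunit, Scnn1b (5.33), the caveolar coat protein gene Cav1 (5.69), the mucin-like surface protein gene Pdpn (6.12), the basement membrane genes Col4a4 (6.67) and Agrn (5.54), the glutamate transporter gene Slc1a1 (8.47, divided by a level from 6 UMIs) and the heparan sulfate sulfotransferase gene Hs2st1 (5.7).

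The members differed widely among themselves. The sum of the 5 rule genes ran from the threshold to 205 per 10000 UMIs in the vehicle library and to 83.9 in the navitoclax library, with medians of 38.9 and 24.0. It reached 50 per 10000 in 59 vehicle members (40.4%) and 10 navitoclax members (17.9%), and 100 per 10000 in 13 and 0. Members of the navitoclax library therefore lay nearer to the threshold, which bears on every treatment comparison that follows. In Ager, which the rule did not use, the lowest, median and highest member had 0, 78.7 and 597 UMIs per 10000 in the vehicle library and 0, 72.5 and 308 in the navitoclax library. The bulk of the Ager distributions overlapped, and the highest vehicle cell lay well above the highest navitoclax cell.

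The levels of other genes followed the rule sum. Just outside the threshold, at 5 to 10 per 10000, barcodes had 3047 and 2967 CPM of Ager in the vehicle and the navitoclax library, and just inside it, at 10 to 15, 4818 and 4998 CPM. Sftpc, the surfactant protein C gene of AT2 cells, stood at 139013 and 158384 CPM outside and 126819 and 85138 CPM inside. The members' lower edge was rich in AT2 transcripts in both libraries. Sftpc was much lower inside the threshold than outside it in the navitoclax library and little lower in the vehicle library.

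**Figure D1:**
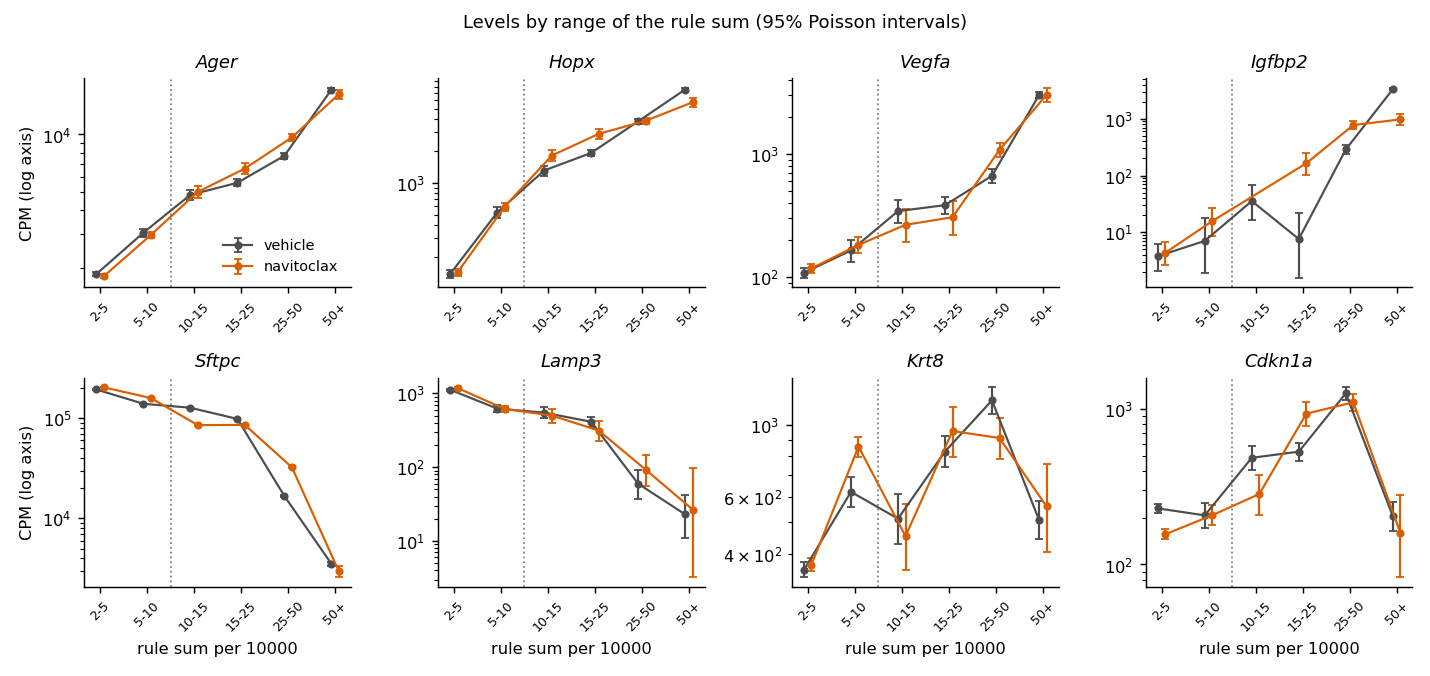
Level of 8 genes, in CPM on a log axis, in barcodes grouped by the sum of the 5 rule genes per 10000 UMIs, for the vehicle (grey) and navitoclax (orange) library with 95% Poisson intervals. The dotted line marks the threshold of 10, and a range with no UMI is not drawn (Igfbp2 at 10 to 15 in the navitoclax library). Ager, Hopx, Vegfa and Igfbp2 were highest at 50 and over, Sftpc and Lamp3 were lowest there, and Krt8 and Cdkn1a were highest between, in the 15 to 50 ranges.

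Across the members, 3 kinds of gene could be told apart by their course over the rule sum, read in the ranges 10 to 25, 25 to 50, and 50 and over, which held 54, 33 and 59 vehicle members and 29, 17 and 10 navitoclax members. Genes of the mature AT1 cell were highest at the top. Vegfa stood at 368, 665 and 3012 CPM in the vehicle library and 284, 1081 and 3028 CPM in the navitoclax library. Cav1 stood at 192, 744 and 1376 CPM and at 204, 726 and 1201 CPM, in the same order. The 2 libraries thus gave closely similar levels of Vegfa and Cav1 within the top range. The basement membrane chain gene Col4a4, whose product assembles with that of the rule gene Col4a3, stood at 214, 429 and 1406 CPM and 137, 511 and 1094 CPM. Sema3e, a guidance protein of the same class as Sema3a, stood at 47.98, 228 and 743 CPM and 70.2, 185 and 640.3 CPM. Ctgf, a matricellular protein gene and a target of the YAP and TAZ coactivators, was nearly confined to the top range, with 38.7, 43.5 and 622 CPM and 66.8, 87.7 and 907 CPM.

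Igfbp2 had a steep course, above all in the vehicle library. In the vehicle library it stood at 18.6, 288 and 3313 CPM, and in the navitoclax library at 73.5, 774 and 974 CPM. It was found in 42 of 146 vehicle members (28.8%) and 9 of 56 navitoclax members (16.1%), so most members of either library had no Igfbp2 UMI. Vehicle members with Igfbp2 had a median rule sum of 69.3 per 10000 and 14312 CPM of Ager, and navitoclax members with Igfbp2 had 31.9 and 10739.5 CPM.

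AT2 genes ran the other way. The summed level of 18 AT2 markers was 148548, 20559 and 5513 CPM over the 3 ranges in the vehicle library and 112562, 43183 and 5563 CPM in the navitoclax library. Lamp3, a lamellar body protein gene, stood at 466, 59.7 and 22.9 CPM and 418, 92.5 and 26.7 CPM, and Etv5, a transcription factor of AT2 cells, at 199.7, 27.2 and 6.88 CPM and 134, 58.4 and 0 CPM. Class II MHC genes, which AT2 cells express, had the same order, with summed levels of 6317, 2659 and 945 CPM and 4381, 3136 and 1321 CPM. Sftpc was seen in every member, but at 2000 UMIs per cell also in 95.8% and 97.4% of fibroblast barcodes, so its presence in a cell carries no information, and its level in the top range (3524 and 2962 CPM) was set beside that in fibroblasts (10075 and 11181 CPM).

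Genes of the transitional state were highest in the middle. Cdkn1a, the p21 cell cycle inhibitor and a p53 target, stood at 514, 1263 and 204 CPM in the vehicle library and 575, 1105 and 160.1 CPM in the navitoclax library. Krt8, the keratin that names the state, stood at 704, 1189.5 and 509 CPM and 678, 911 and 560.3 CPM. Lgals3, the galectin-3 gene, had 1494, 4535 and 553 CPM and 1327, 2157 and 747 CPM, S100a6, a calcium-binding protein gene, had 3583, 9839 and 4033 CPM and 2326, 5459 and 2495 CPM, and Anxa1, the annexin A1 gene, had 604, 1999 and 798 CPM and 528, 1816 and 907 CPM. Over these 3 ranges all 5 were highest at 25 to 50 per 10000 in both libraries; in the finer ranges navitoclax Krt8 was highest at 15 to 25, at 957 CPM. The p53 target list summed to 2477, 4595 and 1544 CPM and 3148, 3847 and 2001 CPM. Cyclin D1 (Ccnd1) and the EGF receptor ligand gene Areg did not share this course and were highest at 10 to 25, with 149, 86.9 and 13.8 CPM and 364, 122 and 0 CPM of Ccnd1 and 107, 43.5 and 9.18 CPM and 237, 97.4 and 13.3 CPM of Areg.

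Sorted by the thresholds used for the other classes, 86 vehicle members (58.9%) and 30 navitoclax members (53.6%) reached neither the AT2 nor the transitional threshold. The AT2 threshold alone was reached by 32 (21.9%) and 15 (26.8%), the transitional threshold alone by 22 (15.1%) and 10 (17.9%), and both by 6 and 1. The exact Clopper-Pearson intervals of these shares overlapped between the libraries, for example 9.69 to 21.9% and 8.91 to 30.4% for the transitional threshold alone. Members at the AT2 threshold alone had 5761 and 5099 CPM of Ager, under the 12873 and 12498 CPM of members at neither threshold. Their Igfbp2 was near 0, at 17.5 and 4.26 CPM. Members at the transitional threshold alone had 4045 and 3053 CPM of Hopx and 1428 and 1735 CPM of Igfbp2, with Cdkn1a at 1425 and 1823 CPM against 459 and 292 CPM at neither threshold. That Igfbp2 level came from few cells, 5 of the 22 vehicle members and 2 of the 10 navitoclax members.

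AT1 members made up a smaller share of epithelial barcodes in the navitoclax library. The share was 3.94% (3.31 to 4.64), or 136 of 3456, in the vehicle library and 1.67% (1.26 to 2.18), or 53 of 3167, in the navitoclax library, a difference of -2.26 percentage points (Newcombe interval -3.06 to -1.48). The range of 50 and over held 59 and 10 members, against 54 and 29 in the range of 10 to 25. Of barcodes over the mitochondrial limit, 13 in the vehicle and 17 in the navitoclax library met the rest of the rule. Fewer AT1 cells in the lung, fewer recovered and fewer that passed the rule cannot be told apart.

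**Figure D2:**
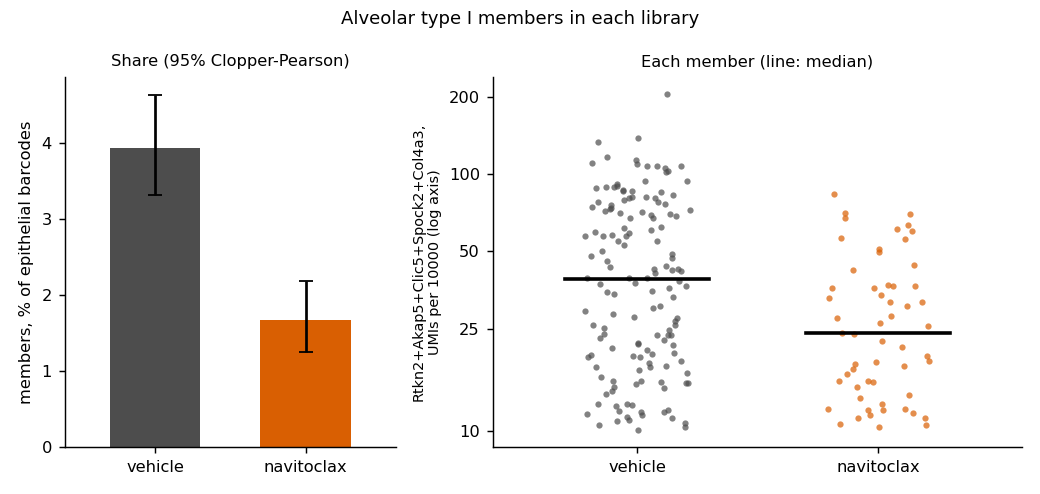
Left, AT1 members as a percentage of epithelial barcodes in each library, with exact 95% Clopper-Pearson intervals (3.94% and 1.67%). Right, the sum of the 5 rule genes per 10000 UMIs on a log axis, 1 point per member with the median as a line (38.9 in the vehicle and 24.0 in the navitoclax library), where the vehicle library holds all 13 members above 100.

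The treatment comparison within the members used 8069 genes with at least 20 UMIs over both libraries. The treatment ratio was log2((navitoclax CPM + 5)/(vehicle CPM + 5)), and a gene was called past the fold when it differed at least 1.5-fold on this scale, which understates the change of low genes. Its median over all genes tested was -0.01, with 3988 genes above 0 and 4081 below. Past the fold and higher in the navitoclax library were 451 genes (5.59%), and past the fold and lower were 623 (7.72%). With a counting interval of the ratio that also excluded 1, these were 248 (3.07%) and 253 (3.14%). In what follows, ratios of CPM carry this interval in parentheses, and the same ratio in the AT2 class is given where it helps to see whether the larger class differed likewise.

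As a list, AT1 genes outside the rule were lower in the navitoclax members when all members were pooled, and nearly level in the range of 10 to 25 per 10000 only. Of 40 tested genes of this list, 36 lay below 0 and 4 above, with a median log2 ratio of -0.32, and 8 were past the fold, all lower, where 7.72% of all genes tested were. In the AT2 class the same 40 genes had a median of 0.15, with 36 above 0. Ager itself had a ratio of 0.895 (0.866 to 0.925) and Hopx of 0.825 (0.783 to 0.869), from the levels above. Among members of 10 to 25 per 10000 the ratio was 1.08 (1.02 to 1.15) for Ager and 1.37 (1.24 to 1.51) for Hopx. The 7 navitoclax members with airway transcripts had a median rule sum of 12.1 per 10000. Their pooled 8828 CPM of Ager and 5276 CPM of Hopx were above that library's 5725 and 2286 CPM in this range. These ratios and the list's median in this range were not computed without them. Among members of at least 25 the ratios of Ager and Hopx were 0.89 (0.855 to 0.926) and 0.745 (0.699 to 0.793). However, 59 of those 92 vehicle members and 10 of those 27 navitoclax members lay at 50 and over. Ager stood at 7732 and 9656 CPM at 25 to 50, higher in the navitoclax library. At 50 and over it stood at 17171 and 16289 CPM, with overlapping intervals. Hopx stood at 3789 and 3832 CPM at 25 to 50 and was lower only at 50 and over, at 7555 and 5736 CPM. The water channel gene Aqp5 stood at 2265 and 2019 CPM, a ratio of 0.891 (0.833 to 0.953), and Pdpn at 449.6 and 338 CPM, a ratio of 0.752 (0.638 to 0.884). Over the ranges 10 to 25, 25 to 50, and 50 and over the list summed to 25712, 48847 and 75052 CPM in the vehicle library and 25299, 46212 and 69143 CPM in the navitoclax library. Among members of 10 to 25 per 10000 the list's median was -0.0023, and among members of at least 25 it was -0.29. The rule genes picked the cells, so their levels are given for description only and are no evidence of a treatment difference. Of these, Rtkn2 stood at 705 and 407 CPM and Spock2, a secreted proteoglycan, at 419.9 and 133 CPM. Akap5 (836 and 661 CPM), Clic5 (1604 and 1141 CPM) and Col4a3 (526 and 374 CPM) differed less.

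For the summed level of signals that AT1 cells send to their neighbours the direction depended on the rule sum, and in the top range largely on Igfbp2. Over the 3 ranges in the same order, the secreted niche signals summed to 1611, 3082 and 10161 CPM in the vehicle library. In the navitoclax library they summed to 2029, 3725 and 7257 CPM, higher in the 2 lower ranges and lower in the top range. Igfbp2 alone stood at 288 and 774 CPM at 25 to 50 and at 3313 and 974 CPM at 50 and over. Vegfa stood at 665 and 1081 CPM and at 3012 and 3028 CPM in these ranges. With all members pooled, of 23 secreted niche signals tested, 17 lay below 0 and 6 above, with a median of -0.36; 7 were past the fold lower and 3 higher, where 7.72% and 5.59% of all genes tested were. Bdnf, a neurotrophin gene, stood at 154 CPM in the vehicle library and 48.3 CPM in the navitoclax library, 3.18-fold lower (2.14 to 4.9). It was detected in 50 and 12 members. Igfbp2 (chr1:72824503-72852474) stood at 1077 and 438 CPM, 2.46-fold lower (2.15 to 2.82). The Igfbp2 ratio depended on which members were compared. Among those of 10 to 25 per 10000 Igfbp2 was higher in the navitoclax library, at a log2 ratio of 1.74 from 12 and 22 UMIs. Most of those 22 UMIs came from 1 cell, which had 33.2 per 10000 of Igfbp2. At 25 to 50 Igfbp2 was also higher in that library, nearly all of it from members at 67.3 and 103 per 10000. Sema3a stood at 206 and 123 CPM and Sema3e at 303 and 185 CPM, 1.68-fold lower (1.3 to 2.21) and 1.64-fold lower (1.32 to 2.04), and both turned among members of 10 to 25 per 10000 (log2 ratios 0.14 and 0.50). Vegfa stood at 1238 and 921 CPM, short of the fold at 0.744 (0.674 to 0.82). On the other side, Areg stood at 61.4 and 159 CPM, 2.59-fold higher (1.91 to 3.5), and was also higher in AT2 cells, at 1.85 (1.77 to 1.94). Edn1, the endothelin-1 gene, rested on 11 and 19 UMIs and had a log2 ratio of -0.22 among members of at least 25 per 10000.

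The structural genes of the AT1 cell were mixed. Of 10 caveolar genes, 8 lay below 0, with a median of -0.34, but over the 3 ranges the list summed to 2359, 5003 and 7811 CPM and 2429.6, 4178 and 7497 CPM, so that it was clearly lower in the middle range only. Prkcdbp, which encodes cavin-3, stood at 227 and 107 CPM, 2.12-fold lower (1.61 to 2.83), and Cav1 at 688 and 518 CPM, a ratio of 0.752 (0.659 to 0.857). Of 22 basement membrane and adhesion genes, 13 lay below 0 with a median of -0.10; Lama3, the laminin alpha 3 chain, stood at 185 and 96.6 CPM, 1.91-fold lower (1.43 to 2.6), and Col4a4 at 627 and 393 CPM, 1.59-fold lower (1.38 to 1.85). The Col4a4 ratio came under the fold among members of at least 25 per 10000, at a log2 ratio of -0.52, as did that of Prkcdbp without the members at the transitional threshold, at -0.36. Sodium channel subunits were lower in the pooled members, Scnn1g at 203 and 109 CPM, 1.86-fold lower (1.42 to 2.49), and Scnn1b at 192 and 129 CPM, a ratio of 0.673 (0.514 to 0.871). Within the 3 ranges Scnn1g stood at 55.7, 54.3 and 546 CPM and 16.7, 82.8 and 547 CPM, lower in the navitoclax library at 10 to 25 only, from 36 and 5 UMIs, and equal at the top. The whole ion and water transport list, which includes the sodium pump, was divided evenly, 6 and 6 of 12. Tight junction and desmosome genes were nearly so, 9 above and 8 below, with Cldn18, the main alveolar claudin, at 3464 and 2645 CPM and a ratio of 0.764 (0.721 to 0.809), and Cldn3 at 509.6 and 661 CPM and a ratio of 1.3 (1.14 to 1.47). Genes of the actin skeleton and of YAP and TAZ signalling had medians of -0.001 and 0.11. Ankrd1, the YAP and TAZ target with the highest ratio, owed 56 of its 66 navitoclax UMIs to 1 cell, and without the highest cell of each library its log2 ratio was -0.18.

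**Figure D3:**
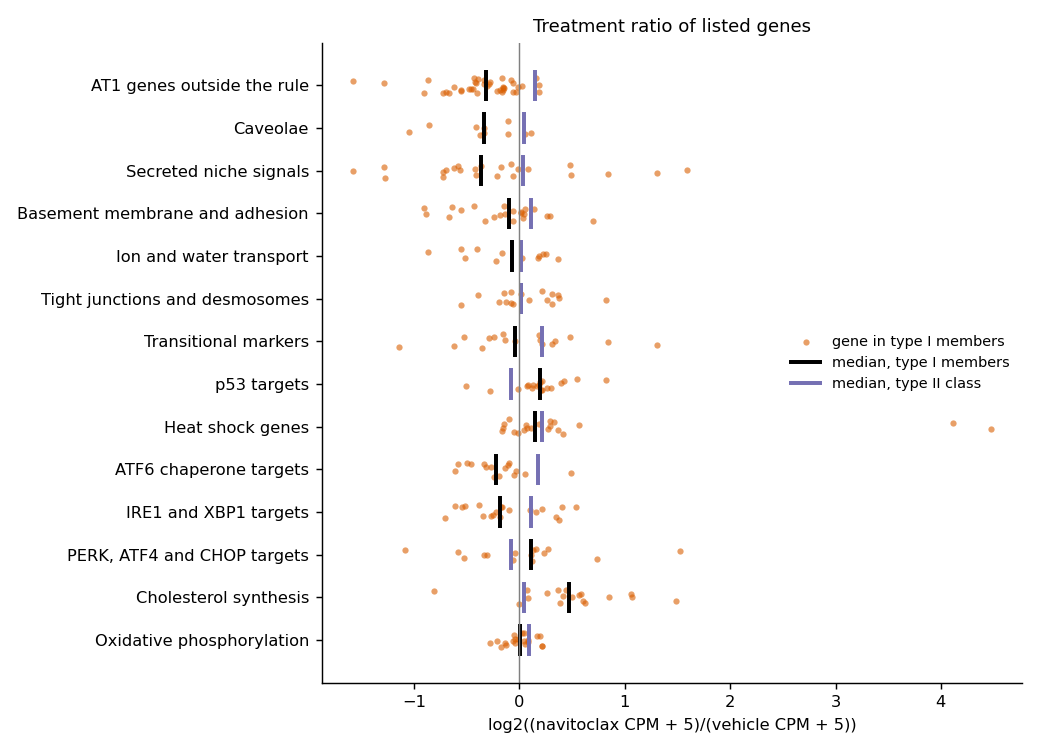
Treatment ratio of single genes on the log2 scale with a pseudocount of 5 CPM in AT1 members (points) for 14 gene lists, with the list median in AT1 members (black bar) and in the AT2 class (purple bar). The AT1 list has its median at -0.32 in members and 0.15 in AT2 cells, the cholesterol list at 0.47 and 0.05, and Hspa1a and Hspa1b stand alone at the right.

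A rule that ranked genes by the bound of the ratio nearest to 1 gave the 12 lowest and 12 highest. It did not leave out the lists of AT1 function, so that Scnn1g and Bdnf recur. Nor did it leave out the 5 rule genes, whose levels are no finding. The lowest held Erdr1, a pseudoautosomal gene, at 264 and 79.4 CPM, 3.33-fold lower (2.45 to 4.62), with a ratio of 0.30 (0.285 to 0.317) in AT2 cells as well. The others were lower in members and not past the fold in the AT2 class, apart from Scnn1g, with an AT2 ratio of 1.76 (1.48 to 2.09), and Bdnf, with an AT2 ratio of 0.64 (0.311 to 1.28) from levels under 1 CPM. Pmp22, a membrane protein of tight junctions and myelin, was found in 110 and 36 members at 884 and 374 CPM, 2.36-fold lower (2.04 to 2.74). Ier3, an early response gene, stood at 705 and 373 CPM, 1.89-fold lower (1.63 to 2.2). Cyp2b10, a cytochrome P450 of lung epithelium, stood at 523 and 300.2 CPM, 1.74-fold lower (1.48 to 2.07). Abca5, Scel and Plod2 had between 12 and 29 navitoclax UMIs, with levels of 99.3 and 34.5 CPM, 64.1 and 20.7 CPM and 99.3 and 50.04 CPM. Ier3 and Plod2 turned among members of 10 to 25 per 10000, to log2 ratios of 0.44 and 0.43, where Pmp22, Abca5, Scel and Cyp2b10 came under the fold.

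Most of the highest were, in the vehicle library, more abundant in the AT2 class than in AT1 members. Npc2, a cholesterol carrier of lysosomes that AT2 cells secrete, stood at 2234 and 4303 CPM in members, 1.93-fold higher (1.83 to 2.03), and at 5371 and 5482 CPM in AT2 cells. Nupr1, a stress-induced chromatin protein gene, stood at 143 and 419 CPM, 2.94-fold higher (2.43 to 3.55), against 655 and 541 CPM in AT2 cells. Chia1, an acidic chitinase gene, stood at 42.1 and 219 CPM, 5.21-fold higher (3.81 to 7.19), with 61 of its 127 navitoclax UMIs in 1 cell. Cd36, a fatty acid carrier, stood at 116 and 266 CPM, 2.29-fold higher (1.83 to 2.87), and Rasl11a, a small Ras-like GTPase gene, at 128 and 288 CPM, 2.26-fold higher (1.82 to 2.8). Ccnd1 stood at 92.4 and 231 CPM, 2.5-fold higher (1.95 to 3.2), and was detected in 50 and 23 members. The AT2 ratios of these 6 lay between 0.826 and 1.49. The summed AT2 marker list differed little between the libraries' members, at 73056 and 74138 CPM, with a median log2 ratio of 0.057. Npc2 and Rasl11a came under the fold when members at the AT2 threshold were left out, with log2 ratios of 0.37 and 0.58, and Nupr1 did so among members of 10 to 25 per 10000, at 0.23.

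Hspb8 and Tpm2, in contrast, were less abundant in AT2 cells than in members of either library. Hspb8, a small heat shock protein that works with BAG3 in clearing misfolded proteins, stood at 48.3 and 126 CPM, 2.61-fold higher (1.85 to 3.68), over 46 and 28 cells, with an AT2 ratio of 1.01 (0.934 to 1.09). Tpm2, a tropomyosin gene, stood at 61.4 and 171 CPM, 2.78-fold higher (2.07 to 3.75), over 31 and 14 cells. Ly6c1, a surface protein gene, stood at 37.9 and 105 CPM, 2.78-fold higher (1.9 to 4.07). Hp, the haptoglobin gene, stood at 181 and 381 CPM, but without the members that carried airway transcripts its log2 ratio was -0.068.

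**Figure D4:**
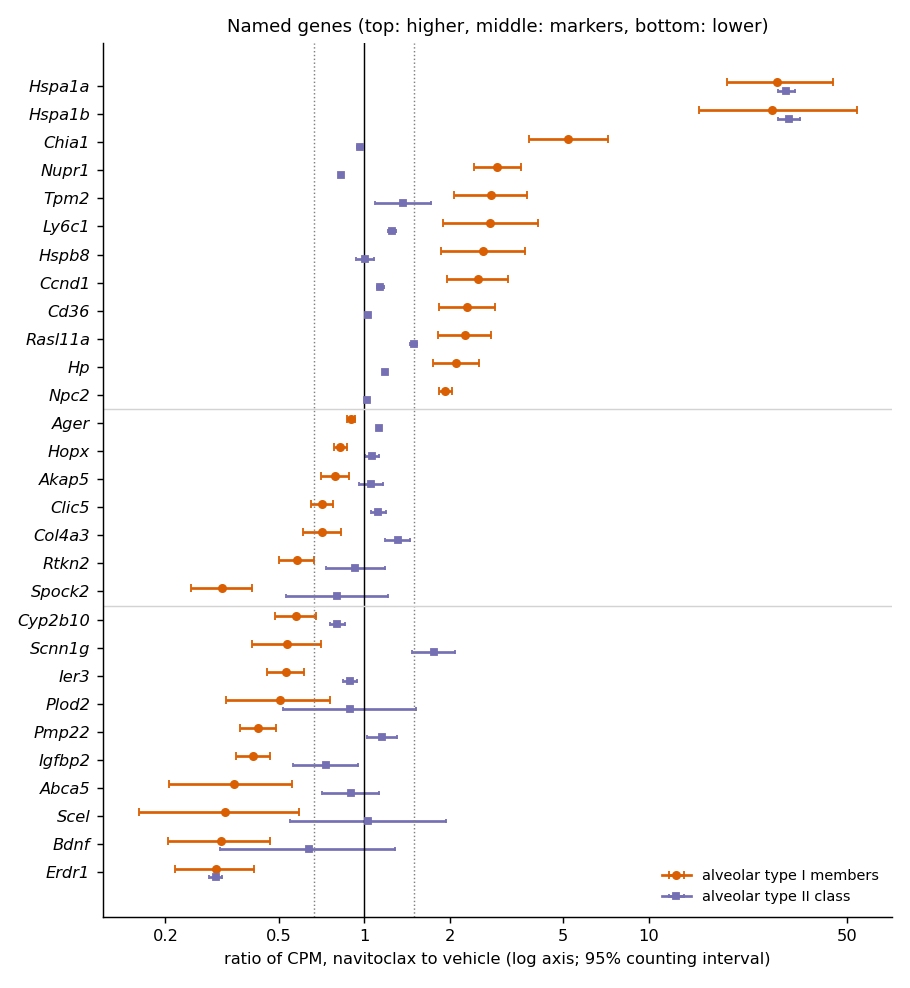
Ratio of CPM, navitoclax to vehicle, on a log axis with 95% counting intervals for the named genes in AT1 members (orange circles) and in the AT2 class (purple squares), with dotted lines at 1.5-fold. Hspa1a and Hspa1b are about as high in both classes and Erdr1 about as low, while Igfbp2 and Pmp22 are past the fold in AT1 members and not in the AT2 class.

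Of the 12 highest, the top ratios were those of Hspa1a and Hspa1b, neighbouring genes of the stress-inducible chaperone HSP70 (chr17:34969190-34972156 and chr17:34956436-34959238). Hspa1a stood at 17.2 CPM in the vehicle library and 488 CPM in the navitoclax library, 28.3-fold higher (18.8 to 44.5), and was detected in 20 of 146 and 32 of 56 members. Hspa1b stood at 8.27 and 224 CPM, 27.1-fold higher (15.00 to 53.8). The difference was not particular to AT1 cells: Hspa1a stood at 17.1 and 522 CPM in AT2 barcodes, 70.5 and 734 CPM in transitional, 11.3 and 174 CPM in ciliated and 79.8 and 791 CPM in fibroblast barcodes, so all 5 classes were higher in the navitoclax library. The heat shock factor HSF1 switches both genes on. Treatment and the preparation of each library cannot be told apart here. Their promoters are shown because both genes were higher together and because their sequences are nearly the same. The RefSeq windows from 250 bases before to 50 after the start (GRCm38.p6, both on the minus strand of chromosome 17) agreed at 296 of 300 bases, and reads of the 2 genes may have been divided between them by the authors' counting. A stretch of 60 bases from each, chr17:34972227-34972286 for Hspa1a and chr17:34959309-34959368 for Hspa1b, holds the heat shock element in capitals:
Hspa1a: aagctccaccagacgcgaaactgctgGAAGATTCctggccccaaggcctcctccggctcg
Hspa1b: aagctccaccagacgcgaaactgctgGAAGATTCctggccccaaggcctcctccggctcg
The motif searched was GAANNTTC or TTCNNGAA, each its own reverse complement, so that both strands were covered, and 15.1% of all 32851 promoter windows of 300 bases held it. The windows of Hspb8 and Hspb1 held 1 and 2 matches, and the 2 windows of Dnajb1 held none.

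Other listed heat shock genes differed little. Of 20 tested, 14 lay above 0 with a median log2 ratio of 0.15, and only Hspa1a and Hspa1b of the list were past the fold. Hspb1, the small chaperone HSP27, stood at 305 and 454 CPM, a ratio of 1.49 (1.27 to 1.73), and Dnajb1, the HSP40 partner of HSP70, at 51.03 and 67.3 CPM, a ratio of 1.32 (0.871 to 1.97). In AT2 cells these 2 ratios were 2.28 (2.2 to 2.37) and 1.77 (1.67 to 1.87).

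The genes of the drug's targets were read next, since the study concerns BCL-2. Bcl2 itself gave 3 UMIs in each library's members, too few for a ratio. Bcl2l1, which encodes BCL-XL, stood at 53.8 CPM in the vehicle library and 104 CPM in the navitoclax library, 1.92-fold higher (1.35 to 2.73), and was detected in 53 of 146 and 29 of 56 members. Its ratio in AT2 cells was 0.973 (0.917 to 1.03). Bcl2l2, which encodes BCL-W, stood at 15.2 and 25.9 CPM, a ratio of 1.71 (0.823 to 3.44), and Mcl1, an anti-apoptotic relative that navitoclax does not block, at 381 and 379.6 CPM, a ratio of 0.995 (0.848 to 1.17). With the rule sum lowered to 5 per 10000 the Bcl2l1 ratio came under the fold, at 0.30 on the log2 scale. Of 7 pro-apoptotic family members, 3 lay above 0 and 4 below and none was past the fold; Bax stood at 183 and 221 CPM and Bbc3, which encodes PUMA, at 38.6 and 31.1 CPM.

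The study also concerns the endoplasmic reticulum stress sensor IRE1 alpha and its branch. Ern1, which encodes the sensor, stood at 10.3 and 17.3 CPM, from 15 and 10 UMIs. Of 20 IRE1 and XBP1 targets, 13 lay below 0 and 7 above, with a median of -0.18, and 2 were past the fold, both lower, a share near the 7.72% of all genes tested. Xbp1, whose transcript IRE1 alpha splices, stood at 92.4 and 58.7 CPM, 1.58-fold lower (1.07 to 2.37), and Edem2, a factor for disposal of misfolded proteins, at 48.3 and 27.6 CPM, 1.75-fold lower (1.01 to 3.23). Xbp1 came under the fold with a rule sum of at least 20 per 10000 and Edem2 without the members at the transitional threshold, at log2 ratios of -0.48 and -0.48. Of 16 chaperone genes driven by ATF6, 14 lay below 0, with a median of -0.22, where AT2 cells had 0.17 with 13 of the 16 above 0. Over the 3 ranges the ATF6 list summed to 1882, 2637 and 2881 CPM and 1714, 2182 and 3295 CPM. It was lower in the navitoclax library at 25 to 50, and in the other 2 ranges the counting intervals overlapped. Hspa5, the chaperone BiP, stood at 345 and 285 CPM, a ratio of 0.826 (0.688 to 0.987), against 1.14 (1.12 to 1.17) in AT2 cells. Genes downstream of PERK, ATF4 and CHOP were divided, 8 above and 7 below, with Ddit3, which encodes CHOP, at 59.3 and 39.7 CPM, where 34 of 86 vehicle UMIs came from 1 cell. Counts of spliced Xbp1 cannot be read from 3′ gene counts.

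Genes of p53 lay mostly above 0 in members, 16 of 19 with a median of 0.20, while 5 of the same 19 did so in AT2 cells; the list sums given above were higher in the navitoclax library at 10 to 25 and at 50 and over, and lower between. The differences were small apart from Ccng1, cyclin G1, at 133 and 239.8 CPM, 1.8-fold higher (1.44 to 2.25). Plk2, a polo-like kinase gene, stood at 62.1 and 93.2 CPM, and Cdkn1a at 611 and 709 CPM, a ratio of 1.16 (1.03 to 1.31). Of 18 alternative settings, 17 kept the sign of the list's median, with a lowest value of -0.20. Cdkn1a kept its sign under 15 of 18, with a lowest log2 ratio of -0.29. In the navitoclax library 1 cell held 282 of the list's 1882 UMIs, and in the vehicle library 1 cell held 265 of 3965. With members at the transitional threshold left out, the Ccng1 ratio came under the fold, at a log2 ratio of 0.52. Of 11 senescence genes, 5 lay above 0 and 6 below; Cdkn2b, which encodes the inhibitor p15, stood at 198 and 121 CPM, 1.64-fold lower (1.26 to 2.16). With a rule sum of at least 25 per 10000 Cdkn2b came under the fold, at a log2 ratio of -0.54. The transitional marker list had a median of -0.044, with Sfn, the 14-3-3 sigma gene, at 382 and 171 CPM, 2.24-fold lower (1.8 to 2.8), of which 111 of 554 vehicle UMIs came from 1 cell. Without the members at the transitional threshold Sfn turned to a log2 ratio of 0.71.

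Genes of cholesterol synthesis were mostly higher in the navitoclax members. Of 18 tested, 17 lay above 0 with a median of 0.47, 7 were past the fold higher and 1 lower, where 5.59% and 7.72% of all genes tested were, and the AT2 class had a median of 0.046. With an interval that excluded 1, 4 were higher and 1 lower. Sqle, squalene epoxidase, stood at 17.9 and 43.1 CPM, 2.41-fold higher (1.33 to 4.34), from 26 and 25 UMIs, and Cyp51, a sterol demethylase, at 17.2 and 41.4 CPM, 2.4-fold higher (1.31 to 4.38), from 25 and 24 UMIs. Summed over the list, levels in the ranges 10 to 25, 25 to 50, and 50 and over were 672, 473 and 418 CPM in the vehicle library and 942, 633 and 414 CPM in the navitoclax library, so that the top range differed little. The AT2 class summed to 1324 and 1341 CPM. With cells thinned to 2000 UMIs the Sqle log2 ratio turned to -0.30. Without members at the AT2 threshold, Sqle and Cyp51 came under the fold, at log2 ratios of 0.47 and 0.44. The list's median was 0.46 among members of at least 25 per 10000.

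Several other lists were divided. Oxidative phosphorylation genes were divided 10 and 10 with a median of 0.0056, interferon-stimulated genes 7 and 7, and TGF-beta response genes 6 above and 9 below. In the TGF-beta list, the ligand gene Tgfb2 stood at 128 and 84.5 CPM, just short of the fold, and Thbs1, a thrombospondin that activates the ligand, at 144 and 198 CPM. Class I MHC genes had a median of -0.23, with 3 of 12 past the fold, all lower, beside 7.72% of all genes, and with the shared light chain gene B2m at 608 and 438 CPM, a ratio of 0.721 (0.624 to 0.829). In the antioxidant list 3 of 17 genes were past the fold lower and 1 higher, and its sum differed mainly at 25 to 50, at 7186 and 4509 CPM. Gclm had the lowest ratio, but 93 of its 163 vehicle UMIs came from 1 cell; Txnrd1, thioredoxin reductase, stood at 86.2 and 43.1 CPM, 2.0-fold lower (1.29 to 3.21), and came under the fold among members of 10 to 25 per 10000, at a log2 ratio of -0.10. Of the transcription factors, Hes1, a Notch target, stood at 386 and 224 CPM, 1.72-fold lower (1.42 to 2.1), with an AT2 ratio of 0.625 (0.601 to 0.65), and Id2, an inhibitor of basic helix-loop-helix factors, at 190.3 and 300.2 CPM. The clock gene Nr1d1 stood at 93.1 and 58.7 CPM, with an AT2 ratio of 0.488 (0.46 to 0.518).

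Markers of other cell types moved with the comparison in a few lists. The airway secretory list summed to 1336 CPM in vehicle and 11922 CPM in navitoclax members, of which 1 cell held 3965 of 6909 navitoclax UMIs. Scgb1a1, the club cell secretory protein gene, stood at 809 and 9739 CPM, and had at least 1 UMI in 142 and 54 members, so its transcripts were spread over nearly every barcode. Without the 2 and 7 members that carried Cyp2f2 and Scgb3a2, its log2 ratio was -0.62. The endothelial list summed to 37.2 and 143 CPM, the fibroblast list to 428 and 521 CPM, and the mesothelial list to 119 and 60.4 CPM. The smooth muscle and pericyte list summed to 8.27 and 34.5 CPM, with 11 of its 20 navitoclax UMIs in 1 cell. In the range of 50 and over that list stood at 9.18 and 160 CPM, from 4 and 12 UMIs. Of 7 fibroblast markers tested, 6 lay above 0 with a median log2 ratio of 0.75. Past the fold higher were 4, and 3 with an interval that excluded 1, where 5.59% and 3.07% of all genes tested were. Of the 302 navitoclax UMIs of the fibroblast list, 62 came from 1 cell. In the range of 50 and over the list stood at 684 and 1587 CPM, from 298 UMIs in 59 vehicle members and 119 UMIs in 10 navitoclax members. The part of the fibroblast list in the other differences was not tested. Basal and red cell lists were at 0.69 and 0 CPM in the vehicle library and at 0 in the navitoclax library. The AT1 list's median was -0.29 without the airway-positive members and -0.30 without the 14 and 8 members under 20 per 10000 of Ager, which included those with endothelial transcripts.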

How the data were processed

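The deposited matrices held raw UMI counts for each barcode. Cell Ranger 4.0.0 wrote them, per the file headers. Per the submitters' processing notes the genome was mm10, and further settings are not given in the sources. Each library held 27998 genes, of which 27645 were matched to GENCODE release M21 for coordinates. Members were found by the rule in the report. Their counts were summed per library and scaled to CPM. Levels carry exact Poisson intervals, ratios a conditional exact interval, shares exact Clopper-Pearson intervals and their difference a Newcombe interval. With 1 library per group no test was made. The ratio and interval functions were tested on simulated Poisson counts, which held no differences between cells. Free RNA was not subtracted. Scrublet (scanpy 1.11.5) marked no member, so no doublet was removed. The members and the gene lists were chosen with earlier results of these data known. Of 602 listed symbols, 1 had no match.

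Classes were assigned in the order members, fibroblast, ciliated, transitional, AT2, by marker sums per 10000 UMIs. Named genes were the given markers and Col4a3, the 12 highest and 12 lowest ratios by the bound nearest to 1 without the highest cell (at least 50 UMIs, and 50 CPM in the higher library, and leaving out unnamed models, ribosomal, mitochondrial and sex-linked genes, other classes' markers, and genes whose level was under 10% of that in another class), up to 3 genes per list with at least 30 UMIs, and the 20 genes with the highest ratio to other classes. Not every list gene so selected is printed singly, and those printed were picked with their values known; the count of signs over the alternatives covers 91 genes, some of them not printed in the report. The values of 1 list gene are not reported here. Genes of the drug's targets and of the course over the rule sum were added after their values were seen. Alternatives changed the limits, the filter, the pseudocount, the scaling and the members; those on rule sum ranges, airway transcripts and Ager level were chosen after seeing the data.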

Additional observations from a re-analysis of the deposited data

Results flagged for a closer look

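Id1, an inhibitor of basic helix-loop-helix factors and a target of BMP signalling, had opposite signs in the AT1 members and the AT2 class. It stood at 101 CPM in the vehicle library and 185 CPM in the navitoclax library in members, a log2 ratio of 0.84, and at 59.6 and 36.9 CPM in AT2 cells, a log2 ratio of -0.63. The difference between the classes was not tested. Among members, 43 and 16 cells had the transcript, and the log2 ratio was -0.25 among those of 10 to 25 per 10000.

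Barcodes outside the comparisons also carried the AT1 signal. Over the mitochondrial limit, 13 vehicle and 17 navitoclax barcodes met the rest of the rule, with median mitochondrial shares of 19.5% and 24.7% and medians of 3518 and 2667 UMIs. They had 6862 and 4187 CPM of Ager, 1485 and 1019 CPM of Hopx and 1282 and 266 CPM of Igfbp2. The vehicle library had the higher level of each of these 3 genes, as it did among members.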

How the results depend on the processing

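The share of AT1 members among epithelial barcodes was lower in the navitoclax library under all 12 alternatives, by -1.70 to -2.47 percentage points with an epithelial denominator and by -1.11 with all kept barcodes as the denominator. The number of genes past the fold depended on the settings, as genes with few UMIs make up most of it. The count of higher genes, 451, was 275 with a rule sum of at least 5 per 10000, 906 with the mean of each cell's counts, 71 with at least 100 UMIs and 135 with a pseudocount of 20 CPM. The count of lower genes, 623, was 971 without any collagen UMI, 1017 with the mean of each cell's counts, 963 without the highest cells, 127 with at least 100 UMIs and 156 with a pseudocount of 20 CPM. Median-of-ratios scaling moved all log2 ratios by 0.02. Of 59 named genes past the fold, 42 had the same sign under every alternative, of which 18 were run. Many of these genes were picked for large ratios in the same cells that the alternatives reuse, so this count is no independent support. The turns of single genes listed next are those of genes past the fold. Some genes short of the fold, and some other list medians, also turned and are not all listed. Among members of 10 to 25 per 10000 the ratio was 1.08 for Ager, 1.37 for Hopx and 1.06 for Cav1. Over all settings the lowest log2 ratio was -0.69 for Dnajb1 and -0.28 for Thbs1, and the highest for Tgfb2 was 0.21. Among members of 10 to 25 per 10000 the log2 ratio turned for Ankrd1 (-0.57), Id1 (-0.25), Ier3 (0.44), Igfbp2 (1.74, mostly from 1 navitoclax cell), Plaur (-0.021), Plod2 (0.43), Sema3a (0.14), Sema3e (0.50) and Trib3 (0.24). So did the medians of the caveolar list (0.076) and the secreted niche signals (0.084). With a rule sum of at least 20 it turned for Cyp2f2 (-1.24), Edn1 (-0.17) and Scgb1a1 (-0.81), with at least 25 for Cyp2f2 (-0.044), Edn1 (-0.22) and Scgb1a1 (-0.86), and with at least 5 for Id1 (-0.18) and Stmn1 (0.86). Without airway-positive members it turned for Hp (-0.068) and Scgb1a1 (-0.62), without members at the AT2 threshold for Ankrd1 (-0.20) and Msmo1 (-0.48), and without those at the transitional threshold for Sfn (0.71). Ankrd1 also turned without collagen UMIs (-0.32) and without the highest cells (-0.18), Msmo1 and Sqle with cells thinned to 2000 UMIs (-0.080 and -0.30), and Msmo1 (-0.11) and the class I MHC median (0.12) with the mean of each cell's counts. The causes of these turns were not tested. Depth limits genes under about 20 UMIs in the smaller library, where the counting interval spans several-fold. No paired analysis was possible because each group had 1 library.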
